A study of Mus musculus with 7 samples.

Results

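Slc30a10 (ENSMUSG00000026614.6) encodes a transporter of the Slc30 family that exports manganese from cells. The sites of its neighbourhood at which the vitamin D receptor (VDR) was found are described here, in epithelium of the mouse proximal small intestine. All VDR peaks with a centre within 100 kb of the gene body were taken, which gave 87 of the 169686 peaks on chromosomes 1 to 19, X and Y. Peaks of different libraries that overlapped by at least 1 bp were merged, which gave 27 of the 87029 regions of the series. The gene was chosen by these same peak lists, in which regions beside it stand near the top, so its peak counts, list places and presence or absence between groups are a description and were not tested.

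VDR was mapped by chromatin immunoprecipitation and sequencing in cells shed with EDTA from duodenum and jejunum. Wildtype mice on standard chow, aged 8 weeks, were given vehicle (3 libraries) or the active vitamin D hormone 1,25(OH)2D3 (3 libraries, 10 ng/g of body weight), and tissue was taken 1 h later. It is not stated that the 3 libraries of a group are from different mice, so the spread between libraries may be partly technical. Every list was called against a single shared input that carries the 1,25(OH)2D3 label.

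The libraries held 15991198 to 19733260 tags in replicates 1 and 2 of both groups, and 68560701 (vehicle) and 66524392 (1,25(OH)2D3) in replicate 3. The lists held 8756, 14888 and 48425 peaks with vehicle and 25510, 30390 and 41722 with 1,25(OH)2D3, and the share of tags in peaks was 2.58% to 8.10% and 11.86% to 18.96%. The files give no tag count per peak and no expression. VDR regions in all 3 1,25(OH)2D3 libraries lay within 50 kb of 6 of 6 epithelial marker genes, and also of 5 of 7 marker genes of other cell types (Ptprc and Elavl4 had none). Regions in all 6 libraries lay that near to 5 of 6 and 2 of 7. The share over all genes at 50 kb is not given here, so these counts are no check on the cell type.

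Slc30a10 sits in the plasma membrane and moves manganese out of enterocytes towards the gut lumen and out of hepatocytes towards bile. Its inherited loss in people leads to manganese overload with a movement disorder. VDR is a nuclear receptor that binds DNA with a retinoid X receptor, typically at a direct repeat of hexamers separated by 3 bp, called DR3, and its genomic sites are often far from the genes they control.

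In the mm9 build the gene spans chromosome 1 positions 187278727 to 187292641 on the plus strand, with 4 exons. Upstream lie the lincRNA Gm2061, which starts 0.72 kb inside Slc30a10 and runs the other way, the transcript 9630028B13Rik, and Eprs, which encodes glutamyl-prolyl-tRNA synthetase. Next to the Eprs start is that of the lincRNA 4930532G15Rik, on the minus strand. Downstream no annotated gene follows for 619 kb, up to Lyplal1. The sequences of 7 regions carry the results that follow: the 5 found in all 6 libraries, the region that every 1,25(OH)2D3 library held and vehicle libraries lacked (called hormone-only), and the promoter region. Each is the 201 bp window around the region's centre, from the NCBIM37 (mm9) reference, in which the DR3 element was searched on both strands. Capitals mark every DR3 match with 0 or 1 mismatch.
4.41 kb upstream, chr1:187274221-187274421, plus strand: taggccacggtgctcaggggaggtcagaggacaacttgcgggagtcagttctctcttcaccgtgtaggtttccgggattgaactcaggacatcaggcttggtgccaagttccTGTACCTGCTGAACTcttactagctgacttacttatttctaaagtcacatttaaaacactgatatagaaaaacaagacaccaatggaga
promoter, chr1:187278493-187278693, plus strand: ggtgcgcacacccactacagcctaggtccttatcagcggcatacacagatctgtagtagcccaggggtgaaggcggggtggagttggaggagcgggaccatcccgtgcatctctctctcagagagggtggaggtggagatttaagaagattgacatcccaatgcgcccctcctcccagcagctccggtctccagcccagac
29.0 kb downstream, chr1:187307622-187307822, plus strand: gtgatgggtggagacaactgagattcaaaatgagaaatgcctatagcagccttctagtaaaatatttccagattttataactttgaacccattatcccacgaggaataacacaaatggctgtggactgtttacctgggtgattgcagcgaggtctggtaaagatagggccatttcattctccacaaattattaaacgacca
31.8 kb downstream, chr1:187310377-187310577, plus strand: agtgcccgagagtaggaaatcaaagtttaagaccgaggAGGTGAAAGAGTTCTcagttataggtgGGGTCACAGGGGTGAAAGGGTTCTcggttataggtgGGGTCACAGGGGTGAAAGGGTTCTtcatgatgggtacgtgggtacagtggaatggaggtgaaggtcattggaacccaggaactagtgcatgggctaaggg
47.9 kb downstream, chr1:187326535-187326735, plus strand: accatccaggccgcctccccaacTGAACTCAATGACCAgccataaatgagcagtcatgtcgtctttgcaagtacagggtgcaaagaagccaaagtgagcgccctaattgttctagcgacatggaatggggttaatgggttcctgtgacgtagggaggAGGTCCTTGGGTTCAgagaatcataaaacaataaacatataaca
54.3 kb downstream, chr1:187332952-187333152, plus strand: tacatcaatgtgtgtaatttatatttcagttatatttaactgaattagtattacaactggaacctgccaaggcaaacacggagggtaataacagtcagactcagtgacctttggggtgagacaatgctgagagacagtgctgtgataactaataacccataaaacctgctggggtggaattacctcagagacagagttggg
61.2 kb downstream, chr1:187339827-187340027, plus strand: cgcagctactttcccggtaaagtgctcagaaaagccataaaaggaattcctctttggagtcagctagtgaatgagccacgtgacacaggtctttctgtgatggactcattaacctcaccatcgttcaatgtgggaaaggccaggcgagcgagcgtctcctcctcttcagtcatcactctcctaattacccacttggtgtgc
The window 31.8 kb downstream holds 5 DR3 matches in 3 separate blocks of capitals. No DR3 match with 0 or 1 mismatch was found in the windows of the promoter and of the regions at 29.0, 54.3 and 61.2 kb.

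The highest-placed group of sites lay downstream, beyond the end of the gene. Between 29.0 and 61.2 kb from the start stood 6 regions, of which 4 were in all 6 libraries and 1 was hormone-only. Of all 27 regions, 13 lay upstream of the start, 1 inside the gene and 13 beyond its end. By annotation, 13 centres were between genes, 10 in introns, 2 in exons and 2 within 1 kb of a transcription start. The regions in introns and exons were those of Eprs, 9630028B13Rik and Gm2061, apart from 1 in the intron of Slc30a10 that follows the third exon, at 8.16 kb. The downstream sites thinned out with distance: the first 100 kb after the gene end held 13 regions and the next 100 kb held 9. From 200 to 500 kb there was none, and from 500 to 600 kb there was 1, in vehicle replicate 3.

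**Figure D1:**
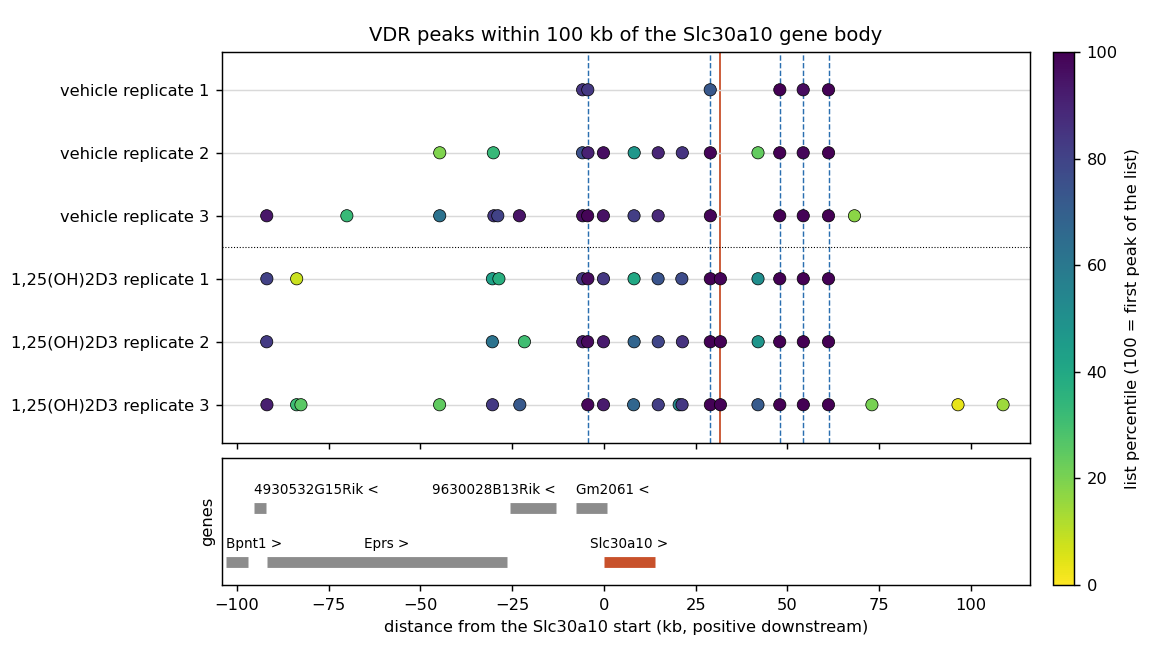
VDR peaks by distance from the Slc30a10 start in kb (x axis, positive downstream) in each of the 6 libraries (rows). Colour gives the position of the peak in its library's list, dashed lines mark the 5 regions in all 6 libraries and the solid line the hormone-only region at 31.8 kb. The gene track below shows annotated genes with their direction, and in every library the first of these peaks is the one at 47.9 kb.

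The region 47.9 kb downstream (chromosome 1, 187326482 to 187326788) was the first of the Slc30a10 sites in every library. In list order, counted over chromosomes 1 to 19, X and Y, it was number 4, 3 and 3 in vehicle replicates 1, 2 and 3 and number 3, 3 and 1 in 1,25(OH)2D3 replicates 1, 2 and 3. What HOMER value this order follows is not stated, so a place orders peaks within 1 list and shows no change between lists of different length. The peaks ahead of it lay on chromosomes 9 and 3 in vehicle replicate 1, on 17 in vehicle replicate 2, on 17 and Y in vehicle replicate 3 and on 17 and 11 in 1,25(OH)2D3 replicates 1 and 2. In 1,25(OH)2D3 replicate 3 none was ahead.

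The region 61.2 kb downstream (187339778 to 187340077) was number 48, 41 and 62 with vehicle and 103, 58 and 76 with 1,25(OH)2D3. The region at 54.3 kb (187332894 to 187333210) was number 283, 253 and 193 with vehicle and 77, 49 and 82 with 1,25(OH)2D3. The site at 61.2 kb therefore stood ahead of that at 54.3 kb in all 3 vehicle libraries, while that at 54.3 kb was ahead in 1,25(OH)2D3 replicates 1 and 2 and behind in replicate 3. The region at 29.0 kb (187307566 to 187307878) was number 2370, 208 and 685 with vehicle and 115, 182 and 176 with 1,25(OH)2D3. Among the Slc30a10 peaks it was the lowest of 6 in vehicle replicate 1, the third highest in vehicle replicate 2 and the fifth in vehicle replicate 3. In every 1,25(OH)2D3 library it was the fourth highest.

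The only upstream region in all 6 libraries lay at 4.41 kb (187274134 to 187274508), in an intron of Gm2061. It was number 1449, 1340 and 476 with vehicle and 746, 730 and 783 with 1,25(OH)2D3. Its peak centres were spread over 100 bp, the widest of the 5, against 21 bp for the region at 61.2 kb. The peaks themselves were 255 to 289 bp wide, depending on the library.

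The hormone-only region lay 31.8 kb downstream (187310333 to 187310622). The next region to its left was that at 29.0 kb, in all 6 libraries, and to its right that at 42.0 kb, in 4. The hormone-only region was number 301, 238 and 216 in 1,25(OH)2D3 replicates 1, 2 and 3, the fifth Slc30a10 site in each of them, and was not called in any vehicle library. The 3 peak centres fell within 4 bp. Hormone-only regions made up 5.39% of all regions, and 1 of 27 here, a share near that background. A missing peak means that the tags did not pass the caller's limits, not that VDR was absent.

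**Figure D2:**
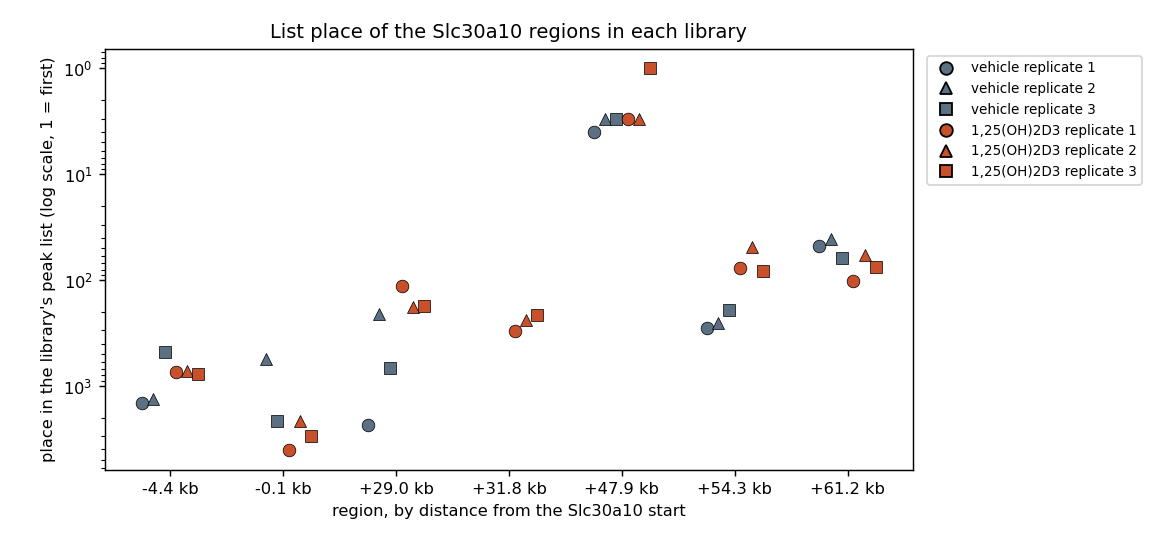
Place in the library's peak list (y axis, log scale, 1 at the top) of 7 Slc30a10 regions, named by distance from the gene start (x axis), with 1 symbol for each library that called the region. The region at 47.9 kb stands at places 1 to 4 in all 6 libraries, and the region at 31.8 kb has 1,25(OH)2D3 symbols only.

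The promoter region (187278436 to 187278751) was centred 133.5 bp upstream of the start. It was called in all 3 1,25(OH)2D3 libraries, at places 4092, 2151 and 3012, and in vehicle replicates 2 and 3, at 564 and 2136. Vehicle replicate 1, whose list was the shortest, did not hold it. In every library that called it, the promoter stood behind all of the sites at 29.0, 47.9, 54.3 and 61.2 kb.

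Counting each library's peaks around the gene, vehicle replicates 1, 2 and 3 held 6, 13 and 16, and 1,25(OH)2D3 replicates 1, 2 and 3 held 16, 15 and 21. The means were 11.7 ± 5.13 with vehicle and 17.3 ± 3.21 with 1,25(OH)2D3 (SD, n = 3), a difference of 5.67 peaks, which was 2.83 without vehicle replicate 1. The groups overlapped, since vehicle replicate 3 held more than 1,25(OH)2D3 replicate 2. Over all protein-coding genes with a peak, every 1,25(OH)2D3 library exceeded every vehicle library at 4219 of 20986 (20.1%), and below every vehicle library at 4 (0.0191%). Slc30a10 was in neither class. Its 87 peaks over the 6 libraries were matched or exceeded at 0.945% of 22225 genes. The windows of its neighbours share peaks with it: Eprs had 8, 17 and 22 with vehicle and 22, 21 and 25 with 1,25(OH)2D3, and Bpnt1, a phosphatase gene further upstream, had 4, 10 and 16, then 14, 13 and 15. Upstream of the start there were 2, 5 and 9 peaks with vehicle and 7, 6 and 8 with 1,25(OH)2D3. From the start onwards there were 4, 8 and 7 with vehicle and 9, 9 and 13 with 1,25(OH)2D3, without overlap. Counted from their own start onwards, 17.1% of the 20011 protein-coding genes with a peak there showed the same.

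The shortest list held the fewest Slc30a10 peaks, but the counts did not follow list length throughout. The longest list, of vehicle replicate 3, held 16, as did the shorter list of 1,25(OH)2D3 replicate 1. Per 10000 peaks of its list, a library held 6.85, 8.73 and 3.30 Slc30a10 peaks with vehicle and 6.27, 4.94 and 5.03 with 1,25(OH)2D3. On this scale the difference in means, 1,25(OH)2D3 minus vehicle, was -0.883, so the direction was the opposite of that of the plain counts, and the groups overlapped again. The peaks from the start onwards numbered 4.57, 5.37 and 1.45 per 10000 with vehicle and 3.53, 2.96 and 3.12 with 1,25(OH)2D3, so on this scale these groups overlapped too, with a difference in means of -0.594. With all lists reduced to the 8755 peaks of the shortest, the counts were 6, 10 and 11 with vehicle and 11 in each 1,25(OH)2D3 library. The part of list length, and of the share of tags in peaks, in the plain counts was not tested. The 5 regions in all 6 libraries and the hormone-only region remained the same under that limit.

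**Figure D3:**
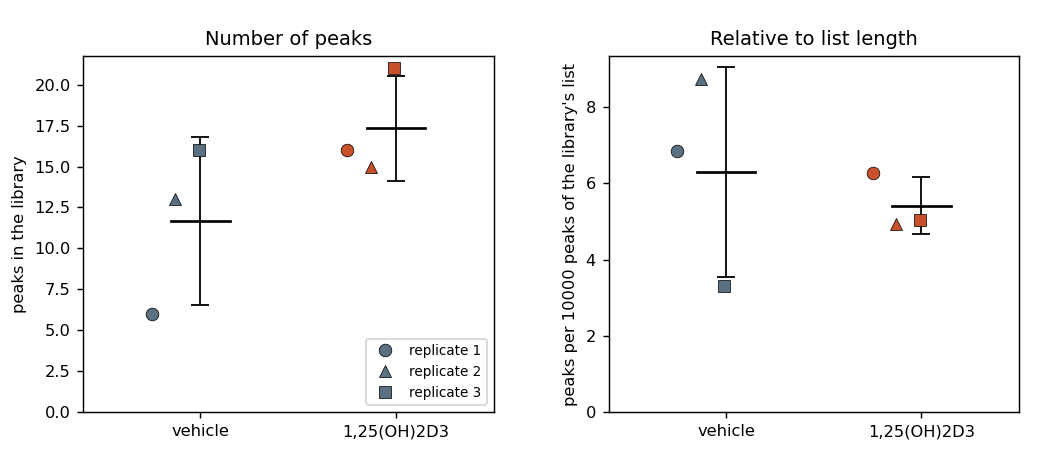
Number of VDR peaks within 100 kb of Slc30a10 per library (left) and the same per 10000 peaks of the library's list (right), by treatment. Symbols are libraries and bars the mean ± SD of 3 libraries. The left panel runs from 6 to 21 and the right from 3.30 to 8.73, with overlap of the groups in both.

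Most sites called after hormone were also called in some vehicle library. All 3 1,25(OH)2D3 libraries shared 13 of the 27 regions, compared with 20.5% of all regions in the series. Of these 13, vehicle peaks were present in 3 libraries for 5, in 2 libraries for 4, in 1 library for 3 and in none for 1. The 4 include the region 30.2 kb upstream, a chain of peaks 712 bp wide with centres spread over 427 bp. There the peak of vehicle replicate 3 did not overlap any 1,25(OH)2D3 peak and was joined to them through that of vehicle replicate 2. Over the 17875 regions of the series in all 3 1,25(OH)2D3 libraries, the shares with 3, 2, 1 and no vehicle libraries were 24.3%, 22.3%, 27.2% and 26.2%. All 3 vehicle libraries shared 6 regions (5.33% of all regions), and 5 of 27 were in all 6 libraries (4.99% of all regions). Regions of every vehicle library that were missing from all 1,25(OH)2D3 libraries numbered 0 here and 0.0299% of the series.

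These classes depended on single libraries. Without vehicle replicate 1, 9 regions were in all remaining libraries in place of 5, the promoter and the regions at 8.16, 14.8 and 30.2 kb (the last upstream) being added. Leaving out vehicle replicate 2 gave 4 hormone-only regions, with sites 30.4 kb upstream and 21.3 and 42.0 kb downstream added. There were 2 without vehicle replicate 3, with the region 91.9 kb upstream at the starts of Eprs and 4930532G15Rik added. There were also 2 without 1,25(OH)2D3 replicate 2, with one 83.7 kb upstream added. The site at 31.8 kb was hormone-only each time, which its calls fix in advance, since leaving out a library cannot add a vehicle peak.

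Of the 8 sites found in every 1,25(OH)2D3 library but not in every vehicle library, the promoter and the hormone-only region are described above, and the other 6 stood lower. In list percentiles, in which 100 is the first peak of a list, the intronic region at 8.16 kb stood at 40.1, 67.9 and 67.3 in 1,25(OH)2D3 replicates 1, 2 and 3. The region at 14.8 kb, just beyond the gene end, stood at 73.9, 79.6 and 81.7, and that at 21.3 kb at 77.0, 85.3 and 83.7. The region at 42.0 kb stood at 51.0, 48.0 and 71.8, that 30.2 kb upstream in an Eprs intron at 43.3, 62.0 and 83.1, and that at the Eprs start at 80.5, 82.6 and 91.8. All of these stood lower in their lists than the sites of all 6 libraries in the same group.

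A region 5.80 kb upstream (187272753 to 187273098), in an exon of Gm2061, was in all 3 vehicle libraries at percentiles of 85.1, 75.5 and 96.3. It was also in 1,25(OH)2D3 replicates 1 and 2, at 83.5 and 92.3, but not in replicate 3, the deepest of that group. Another 3 regions were in 2 or 3 libraries without filling a group: 83.7 kb upstream (1,25(OH)2D3 replicates 1 and 3), 44.8 kb upstream (vehicle replicates 2 and 3 and 1,25(OH)2D3 replicate 3) and 23.0 kb upstream (both replicates 3). The remaining 10 regions were in 1 library only, against 62.6% of all regions. Of these, 5 were from 1,25(OH)2D3 replicate 3, 3 from vehicle replicate 3 and 2 from the other libraries, at percentiles from 3.6 to 80.3. At the edges of the window, the outermost regions lay 91.9 kb before the gene body and 94.9 kb after it. The next ones outside lay 108.5 kb before it, in 1 vehicle library, and 112.4 kb after it, in 1 1,25(OH)2D3 library.

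Sequence was not used to choose the sites. A DR3 element with 0 or 1 mismatch at the 12 informative positions was present in 4 of 27 windows, compared with 10.9% of the windows of all regions and 4.13% of windows 5 kb to their right. The 4 were the regions 4.41 kb upstream and 31.8, 47.9 and 108.8 kb downstream, of which the last was called in 1,25(OH)2D3 replicate 3 only. Among regions in all 6 libraries the element was in 2 of 5 here and in 28.1% of all such regions. Among regions in all 3 1,25(OH)2D3 libraries it was in 3 of 13 here and in 21.7% of the series, and among regions of a single library in 1 of 10 and 6.96%. A DR3 with 0 mismatches was in 1 of 27, the hormone-only region. Its share was 1.64% of all regions, 5.80% of those in all 6 libraries, 3.66% of those in all 3 1,25(OH)2D3 libraries, 2.94% of hormone-only and 0.879% of single-library regions, and 0.189% of the windows 5 kb away.

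The hormone-only window held 5 overlapping or neighbouring DR3 placements, all on the plus strand, where the printed sequence above shows 3 blocks of capitals. The element GGGTCACAGGGGTGA, with 0 mismatches, occurred at 187310442 to 187310456 and again at 187310478 to 187310492. Each copy was overlapped by GGGTGAAAGGGTTCT, with 1 mismatch, which starts 9 bp further on, so that 3 hexamers follow each other with a 3 bp spacer. A further placement, AGGTGAAAGAGTTCT, with 1 mismatch, lay upstream of both. The 2 blocks belong to a tandem repeat: a stretch of 34 bp, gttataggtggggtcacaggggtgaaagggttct, occurred exactly at 187310432 and 36 bp further on. Of all 87029 regions, 11 (0.0126%) had at least 5 such placements, and of the 4687 hormone-only regions 4 (0.0853%) did. The centres of the 3 peaks fell on average 7.67 bp to the left of the middle of the second perfect copy.

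At 47.9 kb the DR3 matches lay inside the called region, to either side of its middle. The element TGGTCATTGAGTTCA, on the minus strand and with 1 mismatch, was centred 70 bp left of the window's middle, and AGGTCCTTGGGTTCA, on the plus strand and with 1 mismatch, 64 bp right of it. Within 50 bp of the middle the best match had 2 mismatches. At least 2 placements were found in 0.896% of all regions. The element 4.41 kb upstream, AGTTCAGCAGGTACA on the minus strand, lay 12.8 bp from the mean of its peak centres. For the sites at 29.0 and 61.2 kb the closest DR3 had 2 mismatches, and at the promoter and 54.3 kb it had 3, which says only that these letters are not in the windows.

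**Figure D4:**
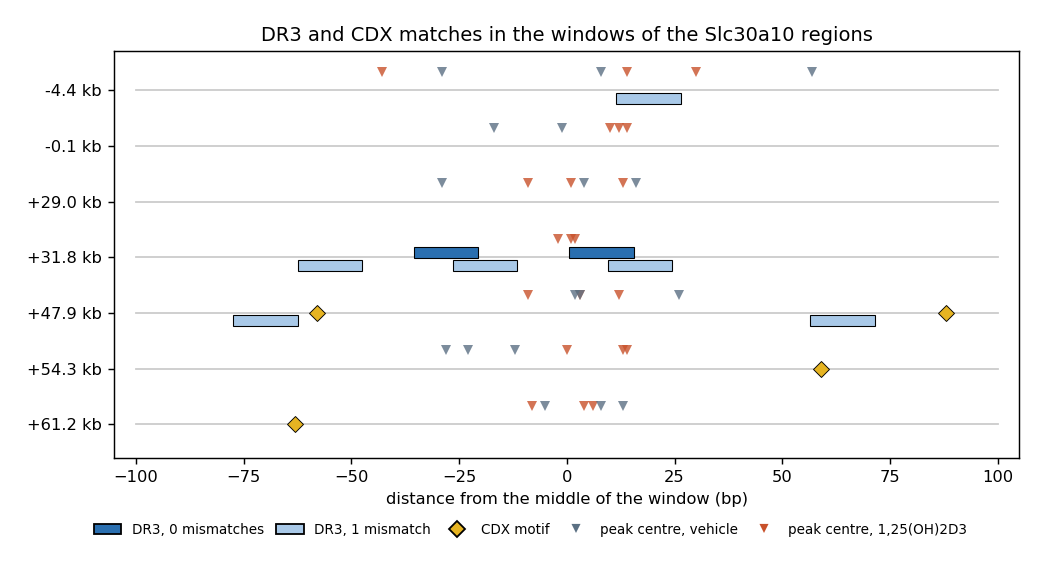
DR3 matches with 0 or 1 mismatch (boxes, 15 bp long), CDX matches (diamonds) and peak centres of each library (triangles, by group) in the windows of 7 Slc30a10 regions (rows), by distance from the middle of the window in bp. The row at 31.8 kb holds 5 boxes, 2 of them with 0 mismatches, and the rows of the promoter, 29.0, 54.3 and 61.2 kb hold none.

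Motifs of other intestinal factors were searched on both strands of the same windows. TTTATNG, the motif of the CDX homeodomain factors that specify intestine, was in 7 of 27 windows, compared with 14.0% of all regions. It was in 3 of the 5 windows of regions in all 6 libraries, those at 47.9, 54.3 and 61.2 kb, compared with 14.7% of all regions of that class. AGATAA, bound by GATA factors, was in 4 (18.4% of all regions), TGANTCA of AP-1 in 2 (10.9%) and CCNCNCCC of KLF and SP factors in 2 (16.5%). CAAAGTCCA of HNF4 and the HNF1 motif, searched in the same way, were in none (1.56% and 0.564%). A match is a description of the letters and shows no binding of these factors.

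Set among 22225 protein-coding genes, Slc30a10 stood out less by how many sites it had than by how high they stood in the lists. Its 27 regions compare with a median of 12 per gene, and 4.43% of genes had at least as many. Its 13 regions in all 3 1,25(OH)2D3 libraries compare with a median of 2 (1.26% of genes had at least as many), and its 5 regions in all 6 libraries with a median of 0 (1.18%). Its single hormone-only region was matched or exceeded at 47.3% of genes. Among the first 1% of each list, the vehicle libraries had 2, 2 and 4 peaks of its neighbourhood, and the 1,25(OH)2D3 libraries 4, 5 and 5. At least 4 in every 1,25(OH)2D3 library were found at 2 genes (0.00900%), Slc30a10 and Eprs, whose window shares the same peaks. At least 2 in every one of the 6 libraries were found at 14 genes (0.0630%) in 5 separate stretches of the genome, among them Cyp24a1, which encodes the enzyme that degrades the hormone. Since the gene was picked for the places of its sites, these shares describe it and support nothing.

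**Figure D5:**
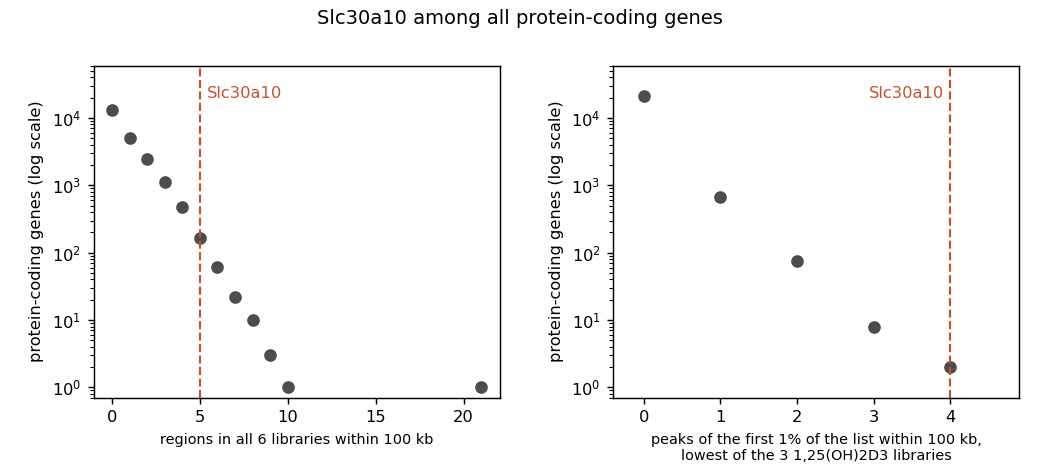
Number of protein-coding genes (y axis, log scale) by the number of VDR regions in all 6 libraries within 100 kb of the gene body (left) and by the number of peaks of the first 1% of the list, taking the lowest of the 3 1,25(OH)2D3 libraries (right). Dashed lines mark Slc30a10, at 5 on the left and at 4 on the right, where 2 genes stand.

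The genes whose 6 peak counts were closest to those of Slc30a10, by the sum of absolute differences over the 6 libraries, were Entpd7, Pigl and Sipa1l3 (a sum of 6 each) and BC005537 and Cd38 (7 each). Cd38, which encodes an enzyme that degrades NAD, had 7, 12 and 14 peaks with vehicle and 16, 15 and 18 with 1,25(OH)2D3, with 4 hormone-only regions and 5 in all 6 libraries. Entpd7, a nucleotide hydrolase, had 6, 14 and 17 and then 16, 16 and 18, with 0 hormone-only regions and 5 in all 6.

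Other genes of manganese handling had VDR sites too. All 12 of the list had a region in all 3 1,25(OH)2D3 libraries within 100 kb (72.9% of all protein-coding genes), 8 had a hormone-only region (47.3%) and 7 a region in all 6 libraries (41.8%). The median number of regions in all 3 1,25(OH)2D3 libraries was 4.5 in the list and 2 over all genes. At 4 of the 12 every 1,25(OH)2D3 library held more peaks than every vehicle library, beside 20.1% of genes with a peak, and at 0 fewer. These were Tfrc, Slc39a14, Slc11a2 and Atp2c2. Tfrc, the transferrin receptor, had 5, 4 and 10 peaks with vehicle and 17, 17 and 19 with 1,25(OH)2D3. Slc39a14, an importer of manganese and zinc, had 3, 9 and 8 with vehicle and 13, 13 and 17 with 1,25(OH)2D3. Slc11a2, the apical divalent metal transporter, had 3, 4 and 3 with vehicle and 7, 11 and 10 with 1,25(OH)2D3. Atp2c2, a Golgi pump for calcium and manganese, had 1, 3 and 8 with vehicle and 14, 19 and 20 with 1,25(OH)2D3. Arg2, a manganese-dependent arginase, had 6, 10 and 11 with vehicle and 10, 11 and 15 with 1,25(OH)2D3, which overlapped. The mean was lower with 1,25(OH)2D3 at Atp2c1 and Trf and higher at the rest of the list. Atp2c1 had 0, 0 and 9 peaks with vehicle and 1, 1 and 3 with 1,25(OH)2D3, and Trf had 1, 0 and 9, then 2, 2 and 3.

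In the rest of the Slc30 family, whose members mostly move zinc out of the cytosol, 8 of 9 genes had a region in all 3 1,25(OH)2D3 libraries (72.9% of all protein-coding genes), 7 a region in all 6 (41.8%) and 5 a hormone-only region (47.3%). Slc30a2, a zinc transporter of vesicles, was the 1 of 9 in which every 1,25(OH)2D3 library exceeded every vehicle library, beside 20.1% of genes with a peak. It had 7, 10 and 7 peaks with vehicle and 11, 14 and 13 with 1,25(OH)2D3. Slc30a1, the zinc exporter of the plasma membrane, had 6, 6 and 10 with vehicle and 10, 11 and 17 with 1,25(OH)2D3. Slc30a4 had 1, 8 and 11 with vehicle and 15, 10 and 14 with 1,25(OH)2D3, and Slc30a5 had 3, 4 and 8, then 6, 10 and 13. The mean was lower with 1,25(OH)2D3 at Slc30a7 and Slc30a8 and higher at the rest of this list. Slc30a7 had 1, 1 and 7, then 1, 1 and 3, and Slc30a8 had 0, 0 and 2, then 0, 0 and 0. Slc30a1 and Slc30a2 had as many regions in all 6 libraries as Slc30a10, 5 each. In every 1,25(OH)2D3 library Slc30a10 had at least 4 peaks in the first 1% of the list, Slc30a1 had at least 1, and the lowest number at each of the other 8 genes was 0. Slc30a10 was picked for such places, so this contrast only describes it.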

How the data were processed

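VDR ChIP-seq peak lists of 6 libraries were used, grouped by the treatment in their titles, and the input library entered only through the authors' peak calls. Per the submitters' processing notes, reads were aligned to mm9 with Bowtie and peaks called with HOMER. Versions are not given in the sources used here. Peak calling was run on single libraries with 1 common input and the centring option, per the file headers. They give a false discovery rate of 0.001, a 4-fold minimum over input and over the local 10 kb, and a Poisson threshold of 0.0001. The maximum fold under the expected unique tag positions was 2. The deposited files hold start and end in bases, with 1 width per library, and the deposited score is 1 for every peak and ranks nothing. List order was used in its place. It follows the peak numbers within chromosomes with a mean Spearman correlation of 0.860 in vehicle replicate 3 and of 0.957 to 0.993 in the other libraries.

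Peaks were merged and counted in Python 3.11.15 with pandas 2.3.3, against GENCODE M1 gene models on NCBIM37, with the longest model kept for a symbol annotated more than 1 time. The DR3 consensus was searched within 100 bp of region centres. Merging, classes and motif search were tested on simulated data. Members, gene lists and motifs were chosen with earlier results of these data known. Named were all regions of more than 1 library, the 5 genes with the closest counts, and the 4 members of each list with the most regions in all 3 1,25(OH)2D3 libraries. Slc11a2, Atp2c1, Trf, Slc30a7 and Slc30a8 were named after their values were seen. Of the regions in 1 library, only the one with a DR3 was named. Other windows, overlaps, list lengths and left-out libraries were tried. No test was run on the gene's peaks.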

Additional observations from a re-analysis of the deposited data

How the results depend on the processing

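With the replicate block, the differences between same-numbered libraries were 10, 2 and 5 peaks, with a mean of 5.67 ± 4.04 (SD, 3 pairs), given as a description with no test, and the numbers are not stated to pair mice. Per 10000 peaks of the list, a scale added after seeing the data, the mean difference was -0.883 peaks, and -0.594 for the peaks from the start onwards. With lists of equal length there were 15 regions in place of 27. The hormone-only count was 2 when peaks had to share at least 50% of the shorter one, the added site lying 30.4 kb upstream, and the DR3 count was 1 with 0 mismatches and 10 with 2 mismatches allowed. Leaving out each library in turn gave differences of 2.83 to 7.83 peaks, 22 to 28 regions, 1 to 4 hormone-only regions, 5 to 9 regions in all remaining libraries, 0 vehicle-only regions and 3 to 5 regions with a DR3. The 5 regions in all 6 libraries and the site at 31.8 kb kept their class with lists of equal length and with at least 50% of the shorter peak shared. Leaving out a library or changing the window (50 kb, or from the gene start) could not change their class, so those settings are no check of it. A peak list holds no tag counts, so occupancy below the caller's limits could not be measured, and the short lists of vehicle replicates 1 and 2 limit what can be called absent there.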
